A study of Mus musculus with 18 samples.

Results

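The cyclic AMP phosphodiesterases described here were Pde3a, Pde3b, Pde4a, Pde4b, Pde4c, Pde4d, Pde7a, Pde7b, Pde8a and Pde8b, the 10 mouse genes of the PDE3, PDE4, PDE7 and PDE8 families. They were selected by symbol from the 45151 symbols present in both kinds of deposited file, and all 10 were found in all 18 samples. The samples were 6 of iWAT (inguinal white fat) adipocytes, 6 of eWAT (epididymal white fat) adipocytes and 6 of BAT (brown fat) tissue. All groups came from wild-type male C57BL/6J mice aged 16 weeks on regular chow, with no transgene and no drug. The iWAT and eWAT adipocytes were isolated by collagenase digestion and flotation. BAT was used as tissue and holds all its cell types, so that against BAT the depot and the preparation cannot be told apart. The labels do not say whether the samples came from separate animals, and p-values then measure only the spread between these samples, which may be technical.

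Cyclic AMP is made when a Gs-coupled receptor activates adenylyl cyclase, and phosphodiesterases hydrolyse it and so end the signal to protein kinase A. In fat cells this signal drives lipolysis, and in brown fat also heat production. PDE3B is the enzyme through which insulin, acting by way of PI3K and AKT, lowers cyclic AMP in adipocytes. PDE4 enzymes are specific for cyclic AMP and are held at defined places in the cell by anchoring proteins, and PDE7 and PDE8 enzymes are specific for cyclic AMP with high affinity.

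The deposited files give for each row the number of reads and the RPKM, which is the number of reads per kilobase of row length, scaled by the total of reads of the sample. RPM stands below for reads scaled by the same total without the row length. A row of the iWAT and BAT files is a gene with its exons merged, whereas a row of the eWAT files is a single transcript. For eWAT the transcript row with the most reads was used for each gene. The kind of file follows the depot, so that for eWAT the effects of depot and of counting cannot be told apart. A transcript row can hold no more reads than the merged row of its gene, but it is shorter, so that its RPKM can be higher. For this reason the comparisons of the members with eWAT are given on read counts and, from a fit with row length as an offset, per row length.

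The total of reads behind the RPKM was between 22929576 and 34512470 per sample, so that 3 reads on a member row corresponded to an RPKM of at most 0.0327. Such floors cover counting error only. Defining markers matched the labels, with a Ucp1 RPKM of 1219 ± 189.5 in BAT and of 2.82 ± 1.92 in iWAT (mean ± SD, n = 6). Some samples stood apart by markers of other cells. The summed RPKM of 8 macrophage markers was 2195 in eWAT sample 15 and 160 to 523 in the other eWAT samples. The summed RPKM of 5 epididymis markers was 76.1 in eWAT sample 14 and 70.9 in eWAT sample 15, and these 5 genes were at 0 in all iWAT samples. The summed RPKM of 6 skeletal muscle markers was 1379 in BAT sample 12 and at most 123 in the other BAT samples. The summed RPKM of 7 endothelial markers was highest in iWAT sample 14 (309, with 55.0 to 136 in the others) and in eWAT sample 8 (324, with 143 to 278 in the others).

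Pde3b was by far the most abundant member in all 3 depots. Its RPKM was 55.0 ± 8.71 in iWAT and 59.0 ± 17.7 in eWAT, against 25.4 ± 2.32 in BAT (mean ± SD, n = 6 here and in all values written in this way), and in every sample it was above every other member. A mean RPKM of at least 1 was reached by 7 members in each white depot and by 6 in BAT. The iWAT count includes Pde4a, whose mean of 1.0016 lay at the minimum, with 0.816 to 1.07 over the samples. After Pde3b, Pde8a had the highest mean RPKM in iWAT and BAT, and Pde4b in eWAT. This depended on row length. By mean RPM, Pde4b came after Pde3b in iWAT (37.7, with 26.4 for Pde8a) and in eWAT (61.1). In BAT it was Pde4d (109.6). In RNA from many cells, fewer cells of a type and less RNA per cell cannot be told apart.

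The order below Pde3b was not the same in the depots. In iWAT it was Pde8a, Pde7a, Pde4b, Pde7b, Pde4d, Pde4a, Pde3a, Pde4c and Pde8b by mean RPKM. Only the steps from Pde3b to Pde8a and from Pde4a to Pde3a separated neighbours whose ranges over the 6 iWAT samples did not overlap. In eWAT the order was Pde4b, Pde8a, Pde7a, Pde7b, Pde4d, Pde4a, Pde3a, Pde8b and Pde4c, and the ranges of neighbours did not overlap between Pde3b and Pde4b, Pde7a and Pde7b, and Pde4a and Pde3a. In BAT it was Pde8a, Pde4a, Pde4d, Pde3a, Pde7b, Pde7a, Pde4c, Pde4b and Pde8b, and neighbours did not overlap between Pde3b and Pde8a, Pde8a and Pde4a, Pde4d and Pde3a, and Pde4b and Pde8b. Pde4a thus stood in the third place of the 10 in BAT and in the seventh place in both white depots, while Pde4b stood in the ninth place in BAT. These places are by RPKM, which rests on transcript rows in eWAT and on merged rows in iWAT and BAT.

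**Figure D1:**
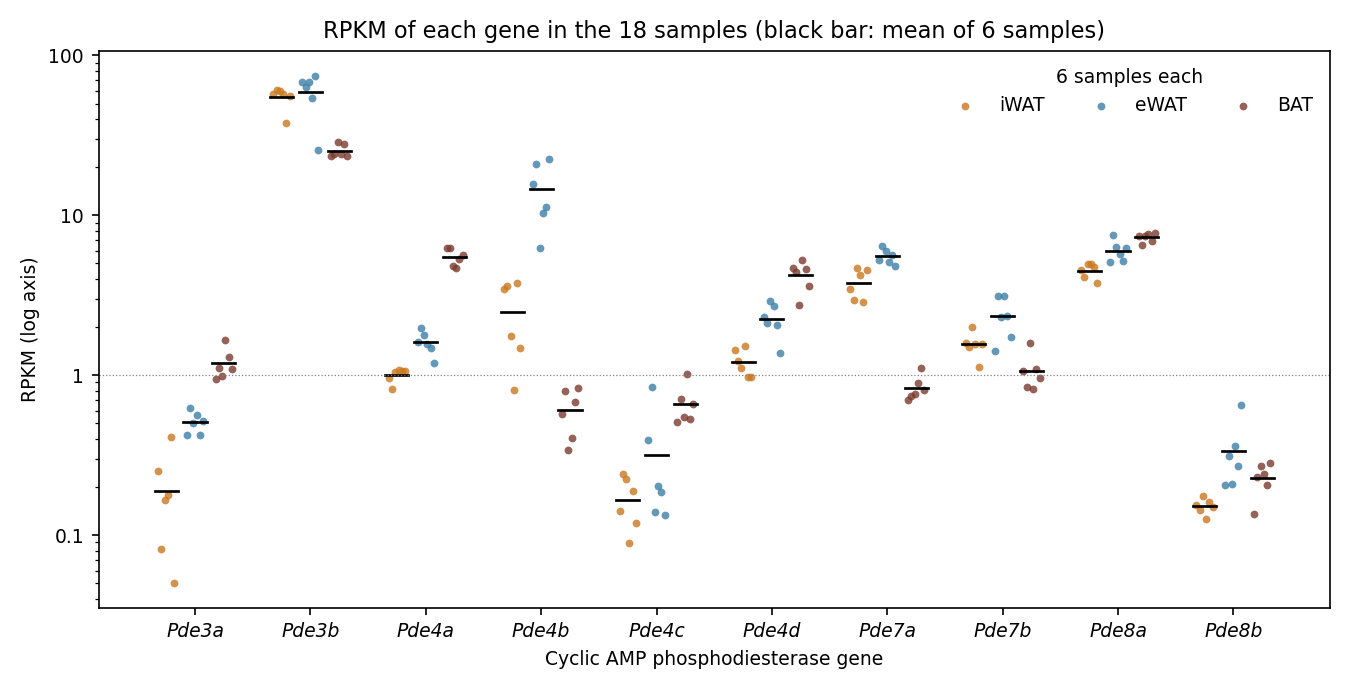
RPKM (log axis) of the 10 genes in 6 iWAT, 6 eWAT and 6 BAT samples, with 1 point per sample, a black bar at the mean and a dotted line at an RPKM of 1. Pde3b lies above all other genes in every depot, Pde4a, Pde4c, Pde4d and Pde3a are highest in BAT by their means, and Pde7a and Pde4b are lowest there.

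The RPKM of the 10 members, given with the SD over 6 samples, summed to 46.9 ± 1.74 in BAT, 70.1 ± 8.74 in iWAT and 92.5 ± 15.8 in eWAT. The PDE3 family made up 56.5% ± 3.09 of this sum in BAT, 78.5% ± 3.32 in iWAT and 63.1% ± 12.2 in eWAT. Pde3b alone made up 54.0%, 78.2% and 62.5% by the means of the depots in the same order. The PDE4 family made up 23.5% ± 3.25 in BAT, 7.13% ± 2.49 in iWAT and 21.2% ± 9.75 in eWAT. The eWAT sums and shares rest on transcript rows and the others on longer merged rows. For Pde4b these rows are 4206 and 15175 bp long, and its mean RPM was 61.1 in eWAT and 37.7 in iWAT. Without Pde3b, the other 9 members summed to an RPKM of 15.1 ± 0.930 in iWAT and 21.6 ± 1.11 in BAT, whose rows are the same. The ranges of this sum, 13.7 to 16.1 and 19.4 to 22.6, did not overlap. The PDE8 share was 6.76% ± 1.33 in iWAT and 16.0% ± 1.31 in BAT, and the PDE7 share 7.65% ± 1.14 and 4.03% ± 0.524.

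**Figure D2:**
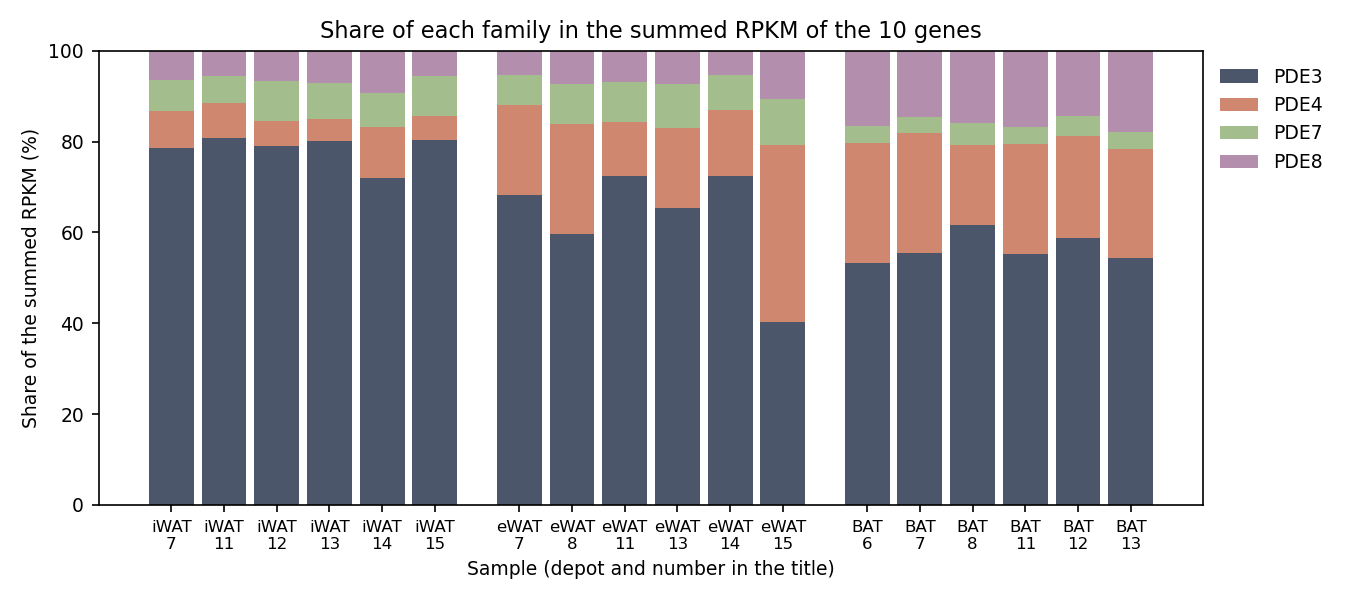
Share (%) of the PDE3, PDE4, PDE7 and PDE8 families in the summed RPKM of the 10 genes, 1 stacked bar per sample, named by depot and the number in its title. PDE3 takes 71.9% to 80.7% in iWAT and 53.4% to 61.6% in BAT, and eWAT sample 15 stands apart with a PDE3 share of 40.2% and a PDE4 share of 39.0%.

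The depots were compared on read counts with edgeR's quasi-likelihood test. Between iWAT and BAT, 9 of the 10 members passed an adjusted p of 0.05. Of these, 3 were higher and 6 were lower in iWAT, where 67.6% of the 19733 rows tested passed, 34.0% higher and 33.6% lower. The median log2 fold change (iWAT minus BAT) was -0.90 over the members and 0.01 over all rows tested. Between eWAT and BAT, 8 members passed, of which 2 were higher and 6 lower in eWAT, where 70.3% of the 18383 symbols tested passed, 35.6% higher and 34.7% lower. The medians (eWAT minus BAT) were -1.02 over the members and 0.03 over all symbols. Both comparisons use the same BAT samples. Between iWAT and eWAT, 2 members passed, both higher in iWAT, where 25.6% of the symbols passed, 13.4% higher and 12.3% lower. The direction of these calls turned with the scale. With row length as an offset, 4 members passed, 0 higher and 4 lower in iWAT, where 4444 symbols were higher and 5196 lower. The members' share of higher calls lay near the share over all features in both comparisons with BAT or below it, and their share of lower calls was above it.

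The scaling bears on these values. TMM normalization sets the median of all features near 0. Without it, the median was 0.27 for iWAT against BAT and 0.36 for eWAT against BAT, and changes below are relative to the TMM scale. Without TMM, the rows higher and lower in iWAT than in BAT were 9107 and 4732, in place of 6711 and 6626, and those higher and lower in eWAT than in BAT 8946 and 4542, in place of 6541 and 6375. With limma on log2(RPKM + 0.1) the symbols higher and lower in eWAT than in BAT were 11492 and 3274, and those higher and lower in iWAT than in eWAT were 995 and 8630, in place of 2462 and 2252. The RPKM ranges of iWAT and BAT did not overlap for 7 members, of which Pde3b and Pde7a were above in iWAT and Pde3a, Pde4a, Pde4c, Pde4d and Pde8a above in BAT. Over all rows tested 47.7% had no overlap, 31.6% with iWAT above and 16.0% with BAT above. In RPM, eWAT and BAT did not overlap for 6 members, of which Pde4b and Pde7a were above in eWAT and Pde3a, Pde4a, Pde4d and Pde8a above in BAT, with 51.5% over all symbols, 34.3% with eWAT above and 17.2% with BAT above.

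**Figure D3:**
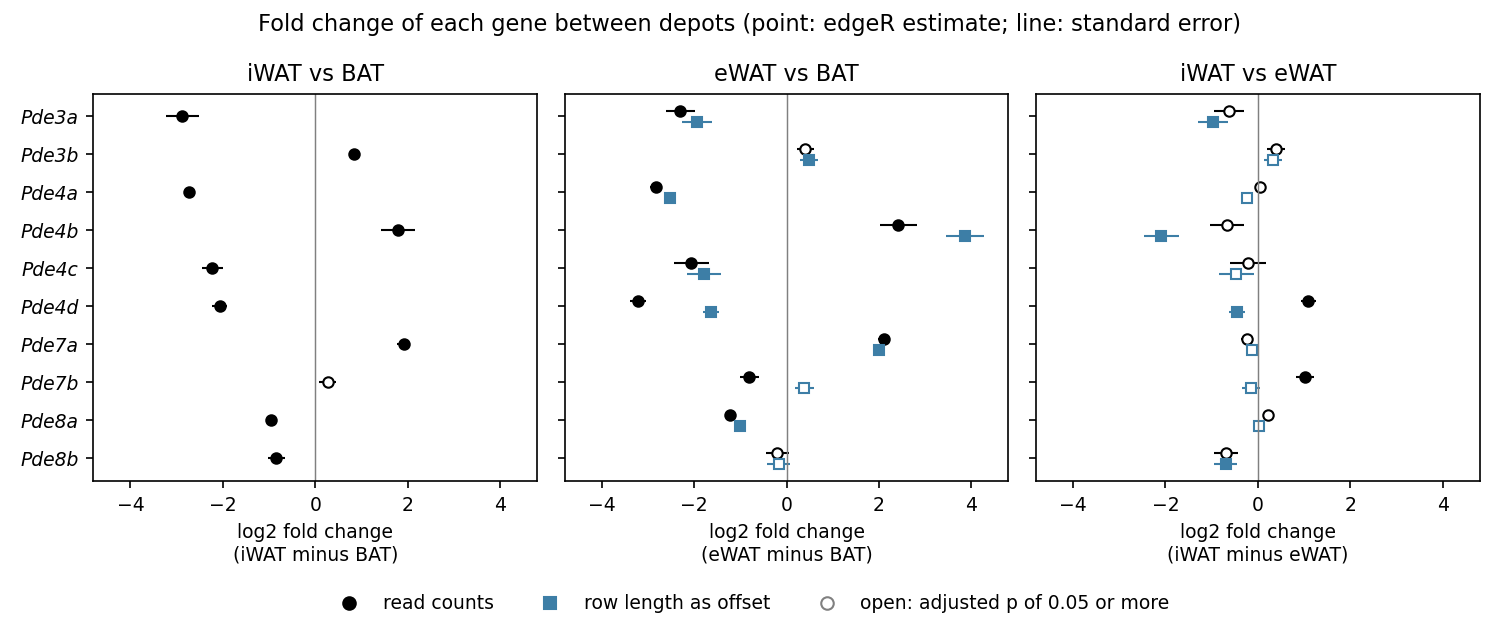
log2 fold change of each gene between iWAT and BAT, eWAT and BAT, and iWAT and eWAT from read counts (black circles) and, where eWAT takes part, with row length as an offset (blue squares), with standard errors and open symbols where the adjusted p was 0.05 or more. Members of the PDE4 family point in opposite directions against BAT, Pde4b at 1.79 and Pde4a at -2.73 between iWAT and BAT, and Pde4d lies at 1.09 without and -0.46 with the length offset between iWAT and eWAT.

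Within the PDE3 family, whose enzymes hydrolyse cyclic AMP and are inhibited by cyclic GMP, Pde3b was higher and Pde3a lower in iWAT than in BAT. Pde3b lies on the plus strand of chromosome 7 of mm9 from 121558768 to 121682765 (15 merged exons). Its RPKM was 37.7 to 61.0 in iWAT (median 57.6), 25.5 to 74.3 in eWAT (median 65.7) and 23.5 to 28.6 in BAT (median 24.3). All iWAT samples were above all BAT samples, and 5 of 6 eWAT samples were above all BAT samples. The log2 fold change of Pde3b was 0.85 for iWAT against BAT (SE 0.12, adjusted p = 3.15e-05), 0.41 for eWAT against BAT (SE 0.19, adjusted p = 0.0608) and 0.39 for iWAT against eWAT (SE 0.19, adjusted p = 0.139). Against BAT, the eWAT call turned on the scale and on single samples. Without eWAT sample 15 the value was 0.56 (SE 0.12, adjusted p = 0.000588), and without iWAT sample 14, which enters this contrast only through the shared fit, it was 0.41 (adjusted p = 0.0496). Per row length it was 0.49 (SE 0.19, adjusted p = 0.0285), without TMM 0.74 (adjusted p = 0.00168) and with limma on log2(RPKM + 0.1) 1.14 (adjusted p = 3.36e-05). For iWAT against eWAT, Pde3b was 0.33 per row length (adjusted p = 0.160) and 0.51 on the sum of all eWAT transcript rows (adjusted p = 0.0230). Here and below, that sum can count a read on several overlapping eWAT rows, while iWAT and BAT keep 1 merged row.

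Pde3b was low in 2 samples. In eWAT sample 15 its RPKM was 25.5, where the other eWAT samples had 54.6 to 74.3, and in iWAT sample 14 it was 37.7, where the others had 55.9 to 61.0. The first of these has the high macrophage sum and the second the high endothelial sum. The summed RPKM of 7 adipocyte markers was 9380 in eWAT sample 15 and 13084 to 17177 in the other eWAT samples. In iWAT sample 14 it was 15980, within the 11144 to 16923 of the other iWAT samples. The part of other cells in the Pde3b values was not tested. A row with the same position in both kinds of file, 4134 bp on the minus strand of chromosome 7 from 121678422 to 121682555, carries the symbol Pde3b and lies opposite to the 3′ end of the gene. The sources do not state that reads were counted by strand, so reads of Pde3b and of this row cannot be told apart. On this row, which needs no choice of transcript, the RPKM was 34.4 ± 2.79 in BAT, 61.1 ± 8.46 in iWAT and 48.5 ± 14.96 in eWAT. Its log2 fold change was 0.65 for iWAT against BAT (SE 0.18, adjusted p = 0.00348), 0.27 for eWAT against BAT (SE 0.18, adjusted p = 0.191) and 0.39 for iWAT against eWAT (SE 0.18, adjusted p = 0.166).

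Pde3a, the PDE3 gene best known from heart, vessels and oocytes, lies on the plus strand of chromosome 6 from 141197790 to 141450589 (19 merged exons). It was highest in BAT, with an RPKM of 0.946 to 1.67 (median 1.11), against 0.0505 to 0.411 in iWAT (median 0.172) and 0.425 to 0.6249 in eWAT (median 0.509). The BAT range overlapped with neither white depot. Against BAT, iWAT gave a log2 fold change of -2.88 (SE 0.36, adjusted p = 7.59e-06) and eWAT of -2.30 (SE 0.32, adjusted p = 4.26e-06). These iWAT values rest on only 10 to 100 reads per sample. The highest iWAT value was in sample 14, which has the highest endothelial sum, and the part of endothelial RNA was not tested. For iWAT against eWAT the log2 fold change was -0.63 (SE 0.33, adjusted p = 0.170), and this turned on the scale, the row and a single sample. It was -0.97 per row length (SE 0.33, adjusted p = 0.0188), -1.09 on the sum of all eWAT transcript rows (adjusted p = 0.00585), -1.18 with limma on log2(RPKM + 0.1) (adjusted p = 0.000248) and -1.04 without iWAT sample 14 (SE 0.28, adjusted p = 0.0102). Per row length the value for eWAT against BAT was -1.93 (SE 0.32, adjusted p = 2.31e-05).

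The PDE4 family was made up of different shares in the depots, which are given as a description. In BAT, Pde4a held 50.2% ± 5.38 of the summed RPKM of the 4 PDE4 genes, Pde4d 38.3% ± 5.15 and Pde4b 5.43% ± 1.58. In iWAT, whose rows are those of BAT, Pde4b held 48.1% ± 15.5, Pde4d 26.4% ± 9.36 and Pde4a 22.1% ± 7.20. In eWAT, Pde4b held 75.0% ± 11.1. Within a sample, the RPKM of Pde4b was 0.0706 to 0.146 of that of Pde4a in BAT, 0.751 to 4.42 times it in iWAT and 3.51 to 18.8 times it in eWAT. Pde4b was above Pde4a in 5 of 6 iWAT samples, in 6 of 6 eWAT samples and in 0 of 6 BAT samples. Such ratios within a sample do not depend on the scaling between samples, but they do depend on row length. The merged Pde4b and Pde4a rows are 15175 and 7657 bp long, whereas their eWAT transcript rows have 4206 and 4652 bp. The size of the eWAT share and ratios thus cannot be compared with the other depots. By mean RPM, which leaves out row length, Pde4b stood at 61.1 against 7.45 for Pde4a in eWAT. The same pair of values was 37.7 against 7.67 for iWAT, and 9.15 against 42.1 for BAT.

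Promoter sequences are shown for Pde4a and Pde4b, a pair whose order differed between BAT and most white samples, as the 250 bases before an annotated start. They were taken from RefSeq (GRCm38.p6), where 7 of the 10 members had 16 such windows. Pde3a, Pde3b and Pde7a had none. The windows were searched on both strands for the cyclic AMP response element TGACGTCA and for its short form TGACG and the reverse complement of this, which the full element contains. The full element was in 0 of the 16 windows and in 1.55% of 32851 windows of all genes, and the short form in 3 of the 16 windows, of Pde4a, Pde4b and Pde8a, and in 17.8% of all windows. The first window of each gene below precedes the start of the eWAT transcript row used for it, and the second holds the short form, printed in capitals as the reverse complement, 50 bases before the start in Pde4a and 34 bases before it in Pde4b. In Pde8a (chr7:81213015-81213264) it lay 84 bases before the start. A match is a description of the letters only.
Pde4a, chr9:21165464-21165713, plus strand: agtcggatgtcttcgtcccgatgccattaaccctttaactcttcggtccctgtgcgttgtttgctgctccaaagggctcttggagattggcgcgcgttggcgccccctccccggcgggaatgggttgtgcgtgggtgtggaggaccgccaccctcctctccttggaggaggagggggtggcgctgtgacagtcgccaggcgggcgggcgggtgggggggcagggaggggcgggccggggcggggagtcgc
Pde4a, chr9:21183851-21184100, plus strand: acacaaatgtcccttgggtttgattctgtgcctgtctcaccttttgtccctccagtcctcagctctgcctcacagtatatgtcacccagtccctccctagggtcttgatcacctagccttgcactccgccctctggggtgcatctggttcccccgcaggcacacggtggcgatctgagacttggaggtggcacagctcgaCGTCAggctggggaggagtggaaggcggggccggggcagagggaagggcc
Pde4b, chr4:102569810-102570059, plus strand: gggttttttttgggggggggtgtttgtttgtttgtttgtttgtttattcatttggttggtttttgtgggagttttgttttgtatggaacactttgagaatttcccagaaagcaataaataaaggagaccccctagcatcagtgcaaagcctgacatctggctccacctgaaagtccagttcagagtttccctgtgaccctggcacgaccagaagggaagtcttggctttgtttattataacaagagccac
Pde4b, chr4:102421305-102421554, plus strand: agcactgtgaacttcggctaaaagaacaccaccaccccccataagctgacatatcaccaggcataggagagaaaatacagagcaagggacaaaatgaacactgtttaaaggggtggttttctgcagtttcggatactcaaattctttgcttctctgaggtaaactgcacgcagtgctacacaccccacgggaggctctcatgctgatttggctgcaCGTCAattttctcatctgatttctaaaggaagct

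Pde4b, the PDE4 gene best known from immune cells and brain, lies on the plus strand of chromosome 4 of mm9 from 101760148 to 102279867 (24 merged exons). Its RPKM was 0.806 to 3.79 in iWAT (median 2.61), 6.24 to 22.5 in eWAT (median 13.5) and 0.341 to 0.827 in BAT (median 0.626). All eWAT samples were above all BAT samples, while iWAT sample 13 with 0.806 lay within the BAT range. Pde4b had a log2 fold change of 1.79 for iWAT against BAT (SE 0.36, adjusted p = 0.000588) and of 2.42 for eWAT against BAT (SE 0.39, adjusted p = 2.42e-05). Per row length the difference between eWAT and BAT was 3.86 (SE 0.41, adjusted p = 8.77e-08). For iWAT against eWAT the read counts gave -0.67 (SE 0.37, adjusted p = 0.198) and the values per row length -2.09 (SE 0.38, adjusted p = 0.000159). Among members with a mean RPKM of at least 1, Pde4b varied most between samples in iWAT, with a highest over lowest RPKM of 4.70, and in eWAT, with 3.61.

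Pde4b was highest in eWAT sample 15 (RPKM 22.5), which has the high macrophage sum, and next highest in eWAT sample 8 (20.98), whose macrophage sum was 298.5. Its lowest eWAT value, 6.24 in sample 11, came with a macrophage sum of 191. In eWAT sample 13, Pde4b had an RPKM of 10.4 with a macrophage sum of 523. In iWAT the macrophage sum was 32.2 to 180 and was highest in sample 7, where Pde4b had an RPKM of 3.48. The highest iWAT value of Pde4b, 3.79, was in sample 14, which had a macrophage sum of 45.0. This sample and eWAT sample 8 have the highest endothelial sums of their depots. Other samples went the other way. The lowest iWAT endothelial sum, 55.0, was in sample 11, where Pde4b had an RPKM of 3.61. In eWAT the endothelial sum was 150 in sample 15 and 278 in sample 13. The parts of macrophage and endothelial RNA in these values were not tested. Without eWAT sample 15 the log2 fold change between eWAT and BAT was 2.24 (SE 0.39, adjusted p = 5.48e-05). Without eWAT samples 14 and 15 and BAT sample 12 it was 2.30.

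The eWAT files resolve Pde4b into 21 transcript rows, many of which overlap, so that the same reads can count on several rows. Of these, 5 rows end before position 102242665, the start of the row with the most reads (NM_001177980, 10 exons, 4206 bp), which lies 483 kb after the first annotated start. These 5 rows held 1 read in all over the 6 eWAT samples, and 4 of them held 0. AK031977, which covers 415 of the 454 bases of the first exon of the long transcript ENSMUST00000106908, was among the rows with 0 reads. By contrast, AK171700, which covers 351 of the 784 bases of the first exon of ENSMUST00000171667, a transcript that starts near NM_001177980, held 601 reads. AK171700 is 918 bp long and runs past the end of that exon, so that these reads need not lie on the exon. The long row NM_019840 (15 exons) held 11246 reads and NM_001177980 held 11699. The long rows thus have reads on the exons they share with the short rows, and almost none were counted on rows that hold only their 5′ part. RefSeq rows with later starts, NM_001177982 at 102260163 and NM_001177981 at 102262448, held 11106 and 11153 reads. The merged rows of iWAT and BAT do not resolve this.

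**Figure D4:**
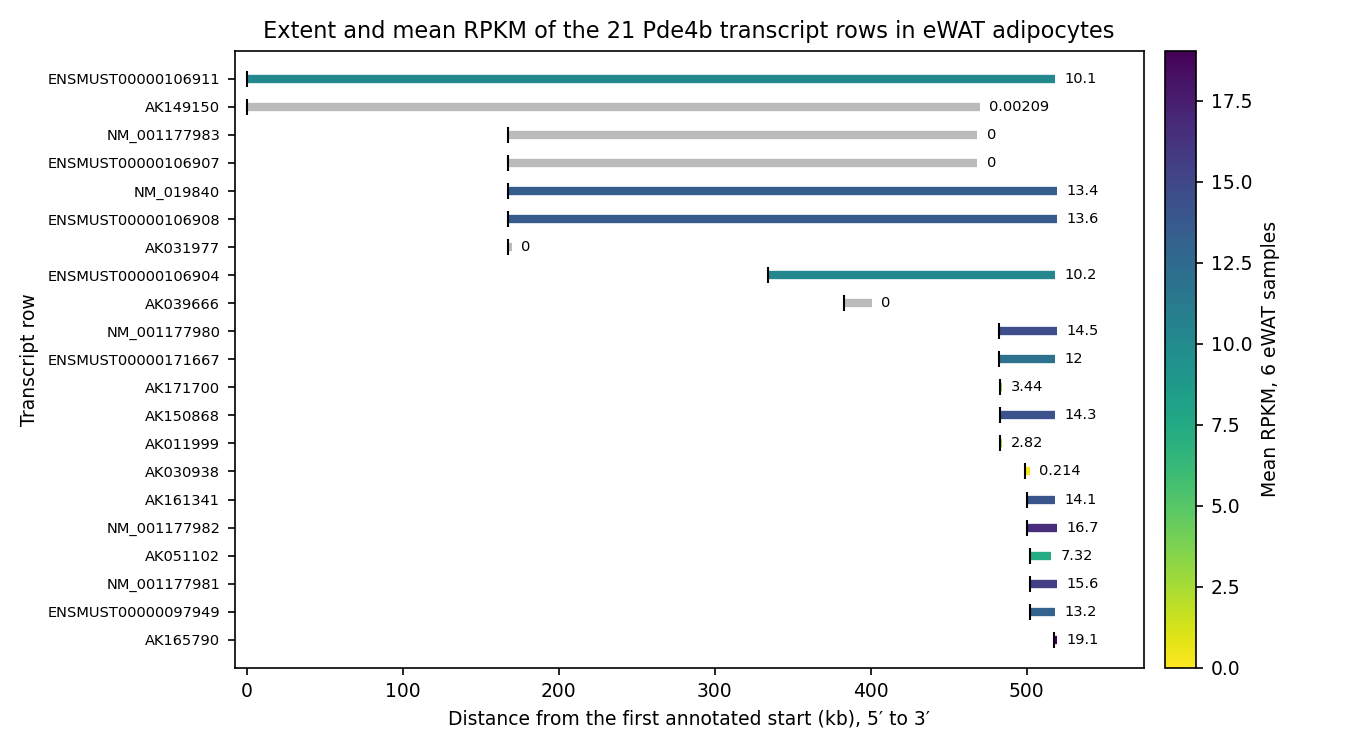
The 21 Pde4b transcript rows of the eWAT files drawn from start (tick) to end as distance (kb) from the first annotated start, coloured by mean RPKM over 6 eWAT samples, with the value at the right end. The 5 rows in grey, which hold only the 5′ part of the gene, have a mean RPKM of at most 0.00209, and long and short rows that reach the 3′ end have 10.1 or more.

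Pde4a lies on the plus strand of chromosome 9 from 20970158 to 21017692 (16 merged exons). Its RPKM was 4.67 to 6.24 in BAT (median 5.51), 0.816 to 1.07 in iWAT (median 1.05) and 1.20 to 1.98 in eWAT (median 1.59), so that neither white depot overlapped with BAT. Against BAT it was lower in iWAT (log2 fold change -2.73, SE 0.11, adjusted p = 8.82e-11), or 6.61-fold, the most precisely measured change of the family. The value between eWAT and BAT was -2.83 (SE 0.12, adjusted p = 4.16e-13), and -2.51 per row length (SE 0.12, adjusted p = 1.26e-12). The white depots differed by 0.06 (iWAT minus eWAT, SE 0.11, adjusted p = 0.753), by -0.24 per row length (adjusted p = 0.0875), and by -0.62 with limma on log2(RPKM + 0.1) (adjusted p = 0.000159).

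Pde4d, whose long isoforms bind beta-arrestin and anchoring proteins, lies on the plus strand of chromosome 13 from 109906430 to 110746177 (29 merged exons). Its RPKM was 2.76 to 5.28 in BAT (median 4.53) and 0.968 to 1.52 in iWAT (median 1.17), with no overlap. For iWAT against BAT the log2 fold change was -2.07 (SE 0.16, adjusted p = 4.78e-08). In eWAT the RPKM was 1.38 to 2.89 (median 2.22), and the log2 fold change against BAT was -3.21 (SE 0.18, adjusted p = 1.74e-11), or -1.63 per row length (SE 0.18, adjusted p = 1.04e-07). Between iWAT and eWAT the direction turned with the scale. On read counts Pde4d was higher in iWAT by 1.09 (SE 0.17, adjusted p = 0.000148), and per row length it was -0.46 (SE 0.17, adjusted p = 0.0320), while the sum of all eWAT transcript rows gave 0.09 (adjusted p = 0.653). In RPM, iWAT with 25.03 to 39.3 did not overlap with eWAT with 9.09 to 19.1. Pde4d and Pde7b were the members without overlap on this scale, both with iWAT above, and over all symbols 10.5% had none, 5.94% with iWAT above and 4.57% with eWAT above. The merged Pde4d row is 25863 bp long and the eWAT transcript row 6598 bp.

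Pde4c, the least abundant PDE4 gene by RPKM in iWAT and eWAT, lies on the plus strand of chromosome 8 from 73247619 to 73275085 (12 merged exons). Its RPKM was 0.507 to 1.02 in BAT (median 0.605), 0.0895 to 0.240 in iWAT (median 0.164) and 0.133 to 0.843 in eWAT (median 0.193). The iWAT and BAT ranges did not overlap, and the eWAT and BAT ranges overlapped through eWAT sample 8. Pde4c gave a log2 fold change of -2.23 in iWAT (SE 0.23, adjusted p = 1.09e-06) and of -2.06 in eWAT, both against BAT (SE 0.38, adjusted p = 0.000107). The white depots rest on 12 to 99 reads per sample. For iWAT against eWAT it was -0.22 (SE 0.39, adjusted p = 0.723), and without eWAT sample 8 it was 0.34 (adjusted p = 0.456). Per row length Pde4c gave -1.79 for eWAT against BAT (SE 0.37, adjusted p = 0.000268) and -0.46 for iWAT against eWAT (SE 0.38, adjusted p = 0.318).

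Of the PDE7 family, Pde7a was higher in both white depots than in BAT. It lies on the minus strand of chromosome 3 from 19123108 to 19211322 (16 merged exons). Its RPKM was 2.88 to 4.71 in iWAT (median 3.84), 4.79 to 6.44 in eWAT (median 5.45) and 0.699 to 1.10 in BAT (median 0.781), so that every white sample was above every BAT sample. Pde7a had a log2 fold change of 1.92 in iWAT against BAT (SE 0.14, adjusted p = 3.80e-08), a 3.77-fold difference, and of 2.103 in eWAT against BAT (SE 0.13, adjusted p = 4.68e-11). Per row length the latter was 2.01 (SE 0.13, adjusted p = 6.27e-11). The value for iWAT against eWAT was -0.24 on read counts (SE 0.12, adjusted p = 0.160) and -0.12 per row length (SE 0.12, adjusted p = 0.427). It passed on the longest eWAT row (-0.33, adjusted p = 0.0394), on the sum of all eWAT rows (-0.90, adjusted p = 2.49e-06) and with limma on log2(RPKM + 0.1) (-0.55, adjusted p = 0.00187).

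Pde7b, on the minus strand of chromosome 10 from 20117810 to 20444884 (16 merged exons), gave no call between iWAT and BAT that held in all settings. Its RPKM was 1.13 to 2.02 in iWAT (median 1.57) and 0.816 to 1.59 in BAT (median 1.014), and these ranges overlapped. The log2 fold change was 0.27 (SE 0.18, adjusted p = 0.195). Without BAT sample 8, the highest BAT sample, it was 0.42 (SE 0.14, adjusted p = 0.0176), and without TMM it was 0.56, past the threshold. In eWAT the RPKM was 1.42 to 3.12 (median 2.33). On read counts Pde7b was lower in eWAT against BAT (log2 fold change -0.80, SE 0.20, adjusted p = 0.00156), per row length it was 0.39 (SE 0.20, adjusted p = 0.0861), and with limma on log2(RPKM + 0.1) it was 1.05 (SE 0.19, adjusted p = 5.39e-05). Its value between iWAT and eWAT was 1.02 on read counts (SE 0.20, adjusted p = 0.00114) and -0.15 per row length (SE 0.20, adjusted p = 0.553). The merged row is 12444 bp long and the eWAT transcript row 4137 bp. The RPKM of Pde7a was 1.97 to 2.87 times that of Pde7b in iWAT, 1.64 to 3.70 times in eWAT and 0.478 to 1.10 times in BAT.

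Pde8a, which encodes a cyclic AMP phosphodiesterase that is insensitive to the general inhibitor IBMX, was lower in both white depots than in BAT and was among the least variable members. It lies on the plus strand of chromosome 7 from 88358482 to 88479419 (23 merged exons). Its RPKM was 3.77 to 4.95 in iWAT (median 4.64), 5.09 to 7.51 in eWAT (median 5.97) and 6.49 to 7.77 in BAT (median 7.40). The iWAT and BAT ranges did not overlap. Against BAT the log2 fold change was -0.96 in iWAT (SE 0.08, adjusted p = 1.99e-07), a 1.94-fold difference, and -1.23 in eWAT (SE 0.09, adjusted p = 1.43e-09). Per row length the latter was -1.007 (SE 0.09, adjusted p = 9.88e-09). For iWAT minus eWAT it was 0.22 (SE 0.09, adjusted p = 0.0867), and this passed without eWAT sample 8 (0.28, adjusted p = 0.0288) or without iWAT sample 15 (0.27, adjusted p = 0.0439). The same contrast was 0.02 per row length (SE 0.09, adjusted p = 0.848), 0.99 on the sum of all eWAT rows (adjusted p = 2.08e-08) and, in the opposite direction, -0.40 with limma on log2(RPKM + 0.1) (adjusted p = 0.00164).

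Pde8b, a gene known from thyroid and adrenal gland, was the least abundant member in iWAT and BAT. It lies on the minus strand of chromosome 13 from 95794060 to 96020291 (26 merged exons). Its RPKM was 0.126 to 0.175 in iWAT (median 0.151), 0.204 to 0.647 in eWAT (median 0.290) and 0.135 to 0.282 in BAT (median 0.236). These values rest on 19 to 98 reads per sample. In iWAT against BAT the log2 fold change was -0.84 (SE 0.18, adjusted p = 0.000906), although 1 BAT sample lay within the iWAT range. In eWAT against BAT it was -0.20 (SE 0.25, adjusted p = 0.5003), 0.12 without TMM, and -0.51 without eWAT sample 15 (SE 0.19, adjusted p = 0.0241). With iWAT against eWAT it was -0.69 (SE 0.26, adjusted p = 0.0563), and it passed without eWAT sample 11 (-0.80, adjusted p = 0.0304) or eWAT sample 7 (-0.80, adjusted p = 0.0301). Per row length it was -0.70 (SE 0.25, adjusted p = 0.0278), and that for eWAT against BAT was -0.17 (SE 0.25, adjusted p = 0.552). The sum of all eWAT rows gave 1.21 for eWAT against BAT (adjusted p = 0.00117). That sum takes 26 eWAT rows, many overlapping and some on the opposite strand, against 1 merged row in BAT. A read can thus count several times in eWAT only, and this value cannot be read as a change of the gene. A row of 2641 bp on the opposite strand (chromosome 13, 95793783 to 95796423), present in both kinds of file, overlaps the 3′ end of Pde8b, and the reads cannot be told apart without strand. Its log2 fold change was -0.53 for iWAT against BAT (SE 0.23, adjusted p = 0.0486) and 0.02 for eWAT against BAT (SE 0.22, adjusted p = 0.938).

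Lists of related genes are given by their counts, beside the share of all features tested that passed (34.0% higher and 33.6% lower in iWAT than in BAT, 35.6% higher and 34.7% lower in eWAT than in BAT, and 13.4% higher and 12.3% lower in iWAT than in eWAT). Whether a list differs from these shares was not tested. Other phosphodiesterase genes were read on the same scales. Of 14 listed, which act on cyclic GMP or on both cyclic nucleotides or are photoreceptor genes, 8 could be tested, and 3 were higher and 3 lower in iWAT than in BAT, both near the shares over all rows. Pde6d, which encodes a prenyl-binding protein rather than an enzyme, had a mean RPKM of 28.6 ± 7.16 in iWAT and 15.3 ± 2.48 in BAT, and its log2 fold change was 0.64 (SE 0.14, adjusted p = 0.00128). Pde1a, a calcium and calmodulin dependent enzyme, had a mean RPKM of 8.18 ± 1.03 in iWAT and 2.96 ± 0.194 in BAT, with a log2 fold change of 1.20 (SE 0.09, adjusted p = 6.47e-08). Pde2a, which is stimulated by cyclic GMP, had 8.29 ± 4.50 in iWAT and 6.30 ± 1.13 in BAT, with a log2 fold change of 0.14 (SE 0.27, adjusted p = 0.658). Between eWAT and BAT 2 of the 8 were higher and 1 lower, and between iWAT and eWAT 1 higher and 2 lower.

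Genes of the route by which insulin acts on PDE3B were read next. Of 15 listed, all tested, 9 were higher in iWAT than in BAT, 2 were lower and 4 did not pass, where 34.0% of all rows were higher and 33.6% lower. The median log2 fold change was 0.54 over the list and 0.01 over all rows. Irs2, an insulin receptor substrate, was higher by 4.38 (SE 0.39, adjusted p = 2.43e-07), with a mean RPKM of 74.2 ± 33.0 in iWAT and 2.97 ± 1.49 in BAT. Cav1, the main protein of caveolae, had a mean RPKM of 853 ± 103 in iWAT and 189 ± 12.3 in BAT (log2 fold change 1.90, SE 0.10, adjusted p = 1.39e-09). Pik3r1, a regulatory subunit of PI3K, gave 1.55 (SE 0.31, adjusted p = 0.000463), whereas Akt2 gave -0.13 (SE 0.07, adjusted p = 0.108). Between eWAT and BAT 10 of the 15 were higher and 1, Akt2, was lower (log2 fold change -0.80, SE 0.12, adjusted p = 7.15e-06), where 35.6% of all symbols were higher and 34.7% lower. The 10 include Pik3r5 and Pik3cg, subunits of a PI3K best known from leukocytes, which are named here after their values were seen. Pik3r5 had an RPKM of 1.23 to 17.2 in eWAT and of at most 0.334 in BAT (log2 fold change 3.84), and Pik3cg of 0.321 to 2.48 in eWAT and of at most 0.174 in BAT (log2 fold change 2.099). All 8 macrophage markers were also higher in eWAT than in BAT, with a summed RPKM of 160 to 2195 against 26.8 to 59.4, and their part in these values was not tested. Between iWAT and eWAT 5 were higher and 4 lower.

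Anchoring proteins hold PDE4 and protein kinase A near their substrates. Of 9 tested anchoring proteins of PDE4, 4 were higher and 2 lower in iWAT than in BAT, against 34.0% and 33.6% of all rows. Akap1, which holds protein kinase A at mitochondria, was lower in iWAT by 2.16 (log2 fold change -2.16, SE 0.11, adjusted p = 5.47e-10) and in eWAT by 2.81 (log2 fold change -2.81, SE 0.13, adjusted p = 1.25e-12), with a mean RPKM of 61.9 ± 6.54 in BAT. Arrb1, which encodes beta-arrestin 1, was higher by 0.63 in iWAT (SE 0.12, adjusted p = 0.000419). Gnb2l1, which encodes RACK1, gave 0.16 (SE 0.10, adjusted p = 0.174). Between eWAT and BAT 3 of 10 tested anchors were higher and 3 lower, and between iWAT and eWAT 2 were higher and 1 lower.

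Of 9 tested effectors of cyclic AMP, 1 was higher and 4 were lower in iWAT than in BAT, against 34.0% and 33.6% of all rows. Prkar2b, the main regulatory subunit of protein kinase A in fat, had a log2 fold change of -0.50 (SE 0.13, adjusted p = 0.00304), and Prkaca, a catalytic subunit, of -0.55 (SE 0.09, adjusted p = 0.000144). Prkar1a gave 0.10 (SE 0.08, adjusted p = 0.324) and Prkacb -0.10 (SE 0.08, adjusted p = 0.267). Between eWAT and BAT 1 was higher and 3 lower, and between iWAT and eWAT 2 were higher.

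Genes that respond to CREB, the transcription factor phosphorylated by protein kinase A, were also read. Of 10, 5 were higher and 2 lower in iWAT than in BAT, against 34.0% and 33.6% of all rows. In eWAT 5 were higher and 1 lower than in BAT, against 35.6% and 34.7% of all symbols, while 1 was higher and 1 lower in iWAT than in eWAT. Fos, an immediate early gene, had a mean RPKM of 1.39 ± 1.36 in BAT, 558 ± 98.0 in iWAT and 498 ± 102 in eWAT, with a log2 fold change of 8.38 between iWAT and BAT (SE 0.60, adjusted p = 2.41e-08). Dusp1, a phosphatase of the same early response, gave 2.37 (SE 0.28, adjusted p = 4.59e-06) and Nr4a1, a nuclear receptor, 1.61 (SE 0.60, adjusted p = 0.0292). Sik1, a kinase that restrains CREB signalling, gave 0.26 (SE 0.27, adjusted p = 0.418). The white samples were digested for their adipocytes and the BAT samples were tissue, and for these genes too depot and preparation cannot be told apart.

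The genes most like each member were read from the 12 iWAT and BAT samples, as Pearson correlations of log2(RPKM + 0.1) after the mean of each depot was removed. Samples of 1 depot share their preparation, and the values are a description. The 5 members whose mean RPKM reached 1 in both depots were compared with 11664 genes. Pde3b was most like Insr, the insulin receptor (r = 0.961, 0.977 in iWAT and 0.895 in BAT), and Pikfyve, a lipid kinase (r = 0.957). Pde4a was most like Commd10 (r = 0.924) and Polr3k (r = 0.915), Pde4d most like AK136907 (r = 0.929) and Rsbn1 (r = 0.919), and Pde7b most like Pank3 (r = 0.958) and AK087872 (r = 0.926). Pde8a was most like Stau2 (r = 0.850) and Zfp784 (r = 0.848). Without iWAT sample 14, in which Pde3b was low, the r of Pde3b was 0.808 with Insr and 0.786 with Pikfyve over 11 samples.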

How the data were processed

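RNA of 18 samples (6 per depot) was sequenced by the authors on an Illumina HiSeq instrument from NEBNext Ultra libraries, and the Genomatix Genome Analyzer is named in the study's methods. The submitters' processing notes name cutadapt 1.16, HISAT2 2.1.0 and mm9. The counter, annotation version and strand setting are not given in the sources used here. The authors deposited 1 file per sample with raw read counts per row, and a read can count on overlapping rows. The deposited RPKM values of the authors are these counts scaled by row length and by 1 total per sample. A transcript and a merged row of 1 gene are thus not on the same scale. The total of reads was recovered from counts, lengths and RPKM and used as the library size.

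Groups and sample numbers were taken from the titles. For each symbol the row with the most reads over the samples of its kind of file was used. A minimum of 10 reads in 6 or more samples was set, and the rows that passed were tested with edgeR 4.0.16 in R 4.3.3 (TMM, quasi-likelihood test, Benjamini-Hochberg adjustment over all rows tested, threshold 0.05). For iWAT against BAT the 12 samples and all merged rows were fitted. For comparisons with eWAT all 18 samples were fitted with 1 row per symbol. Alternatives were limma 3.58.1 on log2(RPKM + 0.1) and log2(RPKM + 1), DESeq2 1.42.0 and its size factors, other filters, other eWAT rows, row length as an offset, the title number as a block, and single samples left out. A fit without TMM was added after seeing the data. All members were named, and from each list of related genes at most the 4 with the highest mean RPKM over the depots. The values of 1 gene that this would name are not reported here. The members and lists were chosen with earlier results of these data known.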

Additional observations from a re-analysis of the deposited data

Results flagged for a closer look

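In 30 groups of 6 samples (10 genes in 3 depots), 4 held a sample that lay far from the others by Dixon's test at the 95% level, where chance flags about 1 in 20 groups, or 1.5 of 30. The Pde3b RPKM of iWAT sample 14 was 37.7, and the other iWAT samples lay at 55.9 to 61.0. Pde4c had an RPKM of 0.843 in eWAT sample 8 and of 0.133 to 0.393 in the other eWAT samples. For Pde7b, BAT sample 8 had an RPKM of 1.59 and the other BAT samples 0.816 to 1.10. In eWAT sample 15, which also has the high macrophage sum, the RPKM of Pde8b was 0.647, against 0.204 to 0.359 in the others.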

How the results depend on the processing

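Between iWAT and BAT, no member reversed its direction under the alternatives run. There 131 values of members kept their direction and their side of the threshold, 5 gained and 3 lost a call. For eWAT against BAT these counts were 131, 11 and 1, with 8 reversed, and for iWAT against eWAT 109, 22 and 1, with 19 reversed. The comparisons with eWAT depended on the row and the scale. By construction, the sum of rows can count a read several times in eWAT, while iWAT and BAT keep 1 merged row per gene. The cause beyond this was not tested. With eWAT minus BAT, Pde7b was 1.05 and 0.68 with limma at a pseudocount of 0.1 and 1 and 0.39 with the length offset. Pde8b was 0.35 and 0.11 with limma, 0.12 without TMM, 0.020 on the identical row and 1.21 on the sum of all transcript rows. With iWAT minus eWAT, limma gave at both pseudocounts -0.041 and -0.042 for Pde3b, -0.62 and -0.37 for Pde4a, -0.83 and -0.55 for Pde4d, -0.52 and -0.36 for Pde7b, and -0.40 and -0.34 for Pde8a. The length offset gave -0.24 for Pde4a, -0.46 for Pde4d and -0.15 for Pde7b. Pde4a was also -0.031 on the longest row, -0.44 on the sum of rows, -0.049 without eWAT samples 14 and 15 and BAT sample 12, and -0.0079 (without eWAT sample 15) to 0.11 with 1 sample left out. Pde4c was -0.38 to 0.34 with 1 sample left out. On the longest row Pde7b was -4.95 for eWAT against BAT and 5.21 for iWAT against eWAT. That eWAT row (5364 bp) has 1 exon and held 92 reads in all, against 1801 on the 13-exon row used otherwise. These 2 values thus rest on a row that does not stand for the whole gene. Members called between iWAT and eWAT were 8 with limma at either pseudocount and 4 with the length offset, in place of 2. The longest row gave 4 and the sum of rows 8. The 2 were higher in iWAT, while with limma and with the length offset 0 were higher and all called members were lower. On the longest row 2 were higher and 2 lower, and on the sum of rows 3 and 5. On rows identical in both kinds of file only Pde3b and Pde8b could be tested with edgeR. There 0 members were called for eWAT against BAT (unadjusted p = 0.151, 0.929 and 0.684 on 3 rows) and 0 for iWAT against eWAT (unadjusted p = 0.0409, 0.0244 and 0.848). All features called for iWAT against BAT, eWAT against BAT and iWAT against eWAT were 13337, 12916 and 4714, and 6345, 7154 and 1969 with at least a 2-fold change. Identical rows gave 3888 and 737 in the comparisons with eWAT. For iWAT against eWAT, limma gave 9625 and 9479, the length offset 9640 and the sum of rows 13584. Leaving out eWAT samples 14 and 15 and BAT sample 12, the members called were 9, 10 and 2, and with 1 sample left out 9 to 10, 8 to 10 and 2 to 3. An RPKM minimum of 2 was reached by 4 members in iWAT, in place of 7 at a minimum of 1. What equal numbers in the titles mark is not stated. In iWAT against BAT, eWAT against BAT and iWAT against eWAT, same-numbered samples had mean correlations of their deviations of 0.031, -0.044 and -0.118. Of their 4, 4 and 5 pairs, 1, 0 and 0 were over 0.1. Pairs with unequal numbers had means of -0.0034, 0.0071 and 0.026. With the number as a block, the members called were 10, 8 and 2 and the features 11711, 11401 and 3153, while Pde7b was called for iWAT against BAT (0.62), and Pde4c was 0.12 for iWAT against eWAT. Values of Pde3a, Pde4c and Pde8b rest on few reads, which limits their precision.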
